A study of Xenopus laevis with 2 samples.

Results

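Fatty acid and sterol metabolism was examined through 51 of the 7531 genes named on the array, those whose symbol belongs to one of the enzyme or carrier families described here. The .L and .S copies of the allotetraploid frog Xenopus laevis were counted apart, and the 51 genes have 45 names without that suffix. They were read by 61 probe sets of 15491, each with exactly 1 gene symbol. The rule takes names and uses no measured value, although it was written with earlier results of these data known. The arrays carried RNA of dorsal posterior pieces of neurulae at stage 18, a region described by the submitters as rich in mesoderm. One array was labelled Derriere depleted, from embryos given 2 ng of antisense morpholino against Derriere and a GFP tracer in both dorsal cells of 4-cell embryos, and one was labelled wildtype. They are also called the depleted-labelled and the wildtype-labelled array. Derriere (gdf3) is a secreted TGF-beta family ligand of mesoderm formation and posterior patterning. No genotype is recorded for either group. The sources used here do not give whether wildtype embryos were injected or how many embryos were pooled. With 1 array a group, no difference could be set against replicates and there are no p-values, so the small number of arrays is what limits precision. The series sought transcripts that depend on Derriere, and the comparison asked which lipid genes differed between the arrays.

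Cells activate fatty acids by joining them to coenzyme A. The acyl-CoA can be lengthened by the elongation cycle of the endoplasmic reticulum, built into glycerolipids, or carried into mitochondria by the carnitine shuttle and burnt by beta-oxidation. Sterols are made from acetyl-CoA along the mevalonate pathway, and apolipoproteins carry lipids between cells. An early frog embryo does not feed and lives on maternal yolk and lipid stores, so its lipid genes act on stored rather than dietary fat.

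The transcript targeted by the morpholino was not lower in the array labelled Derriere depleted. The gdf3.S probe set read 2318.6 there, against 552.0 in the array labelled wildtype, a log2 ratio of 2.06 or 4.17-fold higher. Of the probe sets kept by the filter given below, 0.349% were 2-fold or more higher. A morpholino acts on translation or splicing and need not lower its target. Why the gdf3.S reading was higher was not tested, and it does not settle the labels. If the labels were exchanged, every direction given here would reverse. Each ratio below has the Derriere depleted label on top and the wildtype label beneath. Signals are MAS5 intensities on an arbitrary linear scale. A probe set was kept when its mean signal reached 75, the median of all probe sets, and log2 ratios were centred on the median of the kept probe sets. Probe sets under the filter are called dim. The few ratios given for dim probe sets enter no count or median under this filter. Where a gene had several kept probe sets, as 580 genes did, their log2 ratios had a pooled SD of 0.228. This pooled SD is the spread between probe sets read on the same 2 arrays. It leaves out variation between RNA samples and between hybridizations. In bulk tissue, fewer cells of a type and less RNA per cell cannot be told apart.

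Of the 61 probe sets, 31 were kept, standing for 30 genes. Another 30 were dim, and 21 genes had dim probe sets only. The genes just inside the filter were fdps.S, with 72.5 in the depleted-labelled array and 79.5 in the wildtype-labelled array, and acot9.S, with 110.3 in the depleted-labelled array and 68.0 in the wildtype-labelled array. Just outside it lay acaa1.L, with 79.7 in the array labelled Derriere depleted and 69.7 in the array labelled wildtype, agpat4.S, with 69.2 in the depleted-labelled array and 73.0 in the wildtype-labelled array, and cpt2.S, with 54.7 in the depleted-labelled array and 87.3 in the wildtype-labelled array.

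Among the 30 measured genes, the larger differences lay almost all on the lower side. No kept member probe set was 2-fold or more higher, where 0.349% of all 7747 kept probe sets were. A total of 2 of the 31 were 2-fold or more lower, dbi.S and hacd1.L, where 0.271% of all kept probe sets were. At a lower threshold of 1.5-fold, 6 of the 31 were lower, where 3.38% of all kept probe sets were, and 1 was higher, where 2.52% were. A log2 ratio of -0.5 or less was found for 6 of 30 genes (20%), against 5.66% of all 4543 measured genes. A log2 ratio of 0.5 or more was found for 1 gene (3.33%), against 3.85% of all genes. The 6 lower genes include both copies of dbi and apobec2.L, which has no role in lipid transport. Without apobec2.L, 5 of 29 genes (17.2%) were that low. Elovl5.L, also among the 6, passed the filter only through the wildtype-labelled array, where it is high. The 1 higher gene, acot9.S, passed only through the depleted-labelled array, where it is high. The other members did not share the lower direction. The median of the 30 genes was -0.04 and that of all genes -0.01, with 14 members above 0 (46.7%, against 49.2% of all genes) and 16 below. The SD of the members' log2 ratios was 0.46, against 0.33 over all genes. A total of 16 members (53.3%) lay within the pooled SD around 0, close to the 58.2% of all genes.

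**Figure D1:**
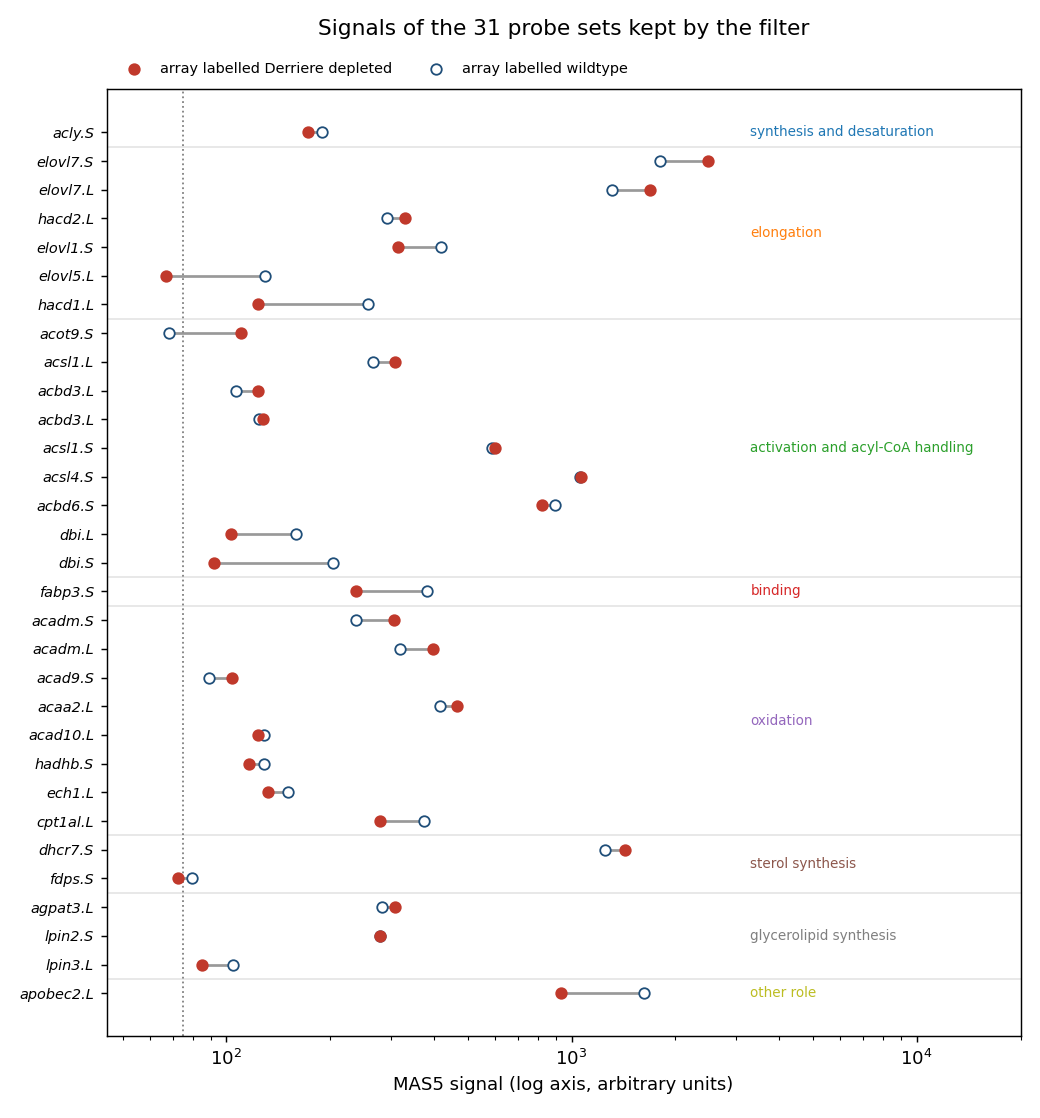
MAS5 signals (log axis) of the 31 kept probe sets, 1 row each, grouped by role, with filled points for the array labelled Derriere depleted and open points for the array labelled wildtype; the dotted line is the filter of 75 on mean signal. The widest gaps with the filled point on the left are those of dbi.S, hacd1.L, elovl5.L and apobec2.L, and acot9.S has the widest gap in the other direction.

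Elongation genes had log2 ratios on both sides of 0. The cycle has 4 steps, of which the first, the rate-setting condensation, is done by the elovl enzymes and the third, a dehydration, by the hacd enzymes. Of 6 measured elongation genes 3 were above 0 and 3 below, with a median of -0.13, an SD of 0.67 and a range of -1.07 to 0.45. Under a filter at the 75th percentile, which drops hacd1.L and elovl5.L, the median was 0.26, so the direction of the median depends on them. The dehydratase hacd1.L, which in mammals is expressed mainly in muscle, had a signal of 123.8 in the array labelled Derriere depleted and 257.6 in the array labelled wildtype. It was thus 2.09-fold lower, a log2 ratio of -1.07, and only 0.245% of kept probe sets had a ratio as low. The related dehydratase hacd2.L, which in mammals is widely expressed, stood at 330.3 in the array labelled Derriere depleted and 291.2 in the array labelled wildtype, a log2 ratio of 0.17. The difference in hacd1.L was therefore not shared by hacd2.L, whose ratio lay within the pooled SD. With an offset of 19.7 added to each signal instead of the floor, hacd1.L came to -0.96 and was no longer 2-fold lower.

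The condensing enzymes went both ways as well. Elovl5.L, which lengthens polyunsaturated fatty acids, read 66.7 in the array labelled Derriere depleted and 129.2 in the array labelled wildtype. It was 1.95-fold lower, with a log2 ratio of -0.96, and lay among the lowest 0.323% of kept probe sets. Its mean signal lay in the dimmest of 4 equal bins of kept probe sets, where ratios spread most, with an SD of 0.36. It passed the filter through the wildtype-labelled array, since its signal in the other array was under 75. Elovl1.S, which makes very long saturated and monounsaturated chains, read 313.7 in the array labelled Derriere depleted and 420.0 in the array labelled wildtype, a log2 ratio of -0.43. Both copies of elovl7, which lengthens long saturated chains, were on the higher side. Elovl7.L read 1692.7 in the array labelled Derriere depleted and 1307.0 in the array labelled wildtype, and elovl7.S read 2478.8 in the depleted-labelled array and 1801.3 in the wildtype-labelled array. Their log2 ratios were 0.36 and 0.45, and both probe sets were in the brightest bin, where the SD of the ratio was 0.31. Elovl2.L, another enzyme of polyunsaturated chains, was dim, at 35.0 in the depleted-labelled array and 38.8 in the wildtype-labelled array.

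The acyl-CoA binding protein gene dbi had the lowest ratio of all measured members. Its product is a small cytosolic protein that holds acyl-CoA esters and hands them to enzymes. Dbi.S read 91.9 in the array labelled Derriere depleted and 204.0 in the array labelled wildtype, which is 2.23-fold lower with a log2 ratio of -1.16. It was the fifth lowest of 4543 genes, and 0.0904% of kept probe sets had a ratio as low. Dbi.L read 103.3 in the array labelled Derriere depleted and 159.1 in the array labelled wildtype, a log2 ratio of -0.63. Both copies were thus lower, dbi.S by more. Whether the copies share signal between their probe sets was not tested. Dbi.S and hacd1.L lay in the second dimmest bin, where 8 of 1937 probe sets were 2-fold or more lower.

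The other members that activate, hold or release acyl-CoA differed little, apart from acot9.S. Acot9.S, a mitochondrial thioesterase that frees fatty acids from coenzyme A, read 110.3 in the array labelled Derriere depleted and 68.0 in the array labelled wildtype, a log2 ratio of 0.69 and the highest of the 30 genes. Its probe set lay in the dimmest bin, and 1.46% of kept probe sets had a ratio as high. It passed the filter through the depleted-labelled array, since its signal in the wildtype-labelled array was under 75. The acyl-CoA synthetases join fatty acids to coenzyme A. Those of the acsl family had log2 ratios of 0.21 for acsl1.L, 0.02 for acsl1.S and 0.00 for acsl4.S. Another synthetase gene, acsbg2.L, lies outside the naming rule and the further lists. It had a log2 ratio of -0.54, where 5.66% of all genes were at -0.5 or less. Acsl4.S, which prefers arachidonate, read 1064.5 in the array labelled Derriere depleted and 1055.1 in the array labelled wildtype. Among the genes with an acyl-CoA binding domain, the Golgi protein gene acbd3.L had a log2 ratio of 0.12 over 2 probe sets that read 0.20 and 0.03, and acbd6.S had -0.14. The 8 measured genes of this role had a median of 0.01.

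The carrier fabp3.S was lower. Fabp3, the fatty acid binding protein of heart and skeletal muscle in mammals, read 237.9 in the array labelled Derriere depleted and 380.2 in the array labelled wildtype. That is 1.61-fold lower, a log2 ratio of -0.69, and 1.69% of kept probe sets were as low. The intestinal carrier fabp2.L read 5.5 in the depleted-labelled array and 7.6 in the wildtype-labelled array, under the floor of 19.7 on both arrays, so no ratio is given.

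**Figure D2:**
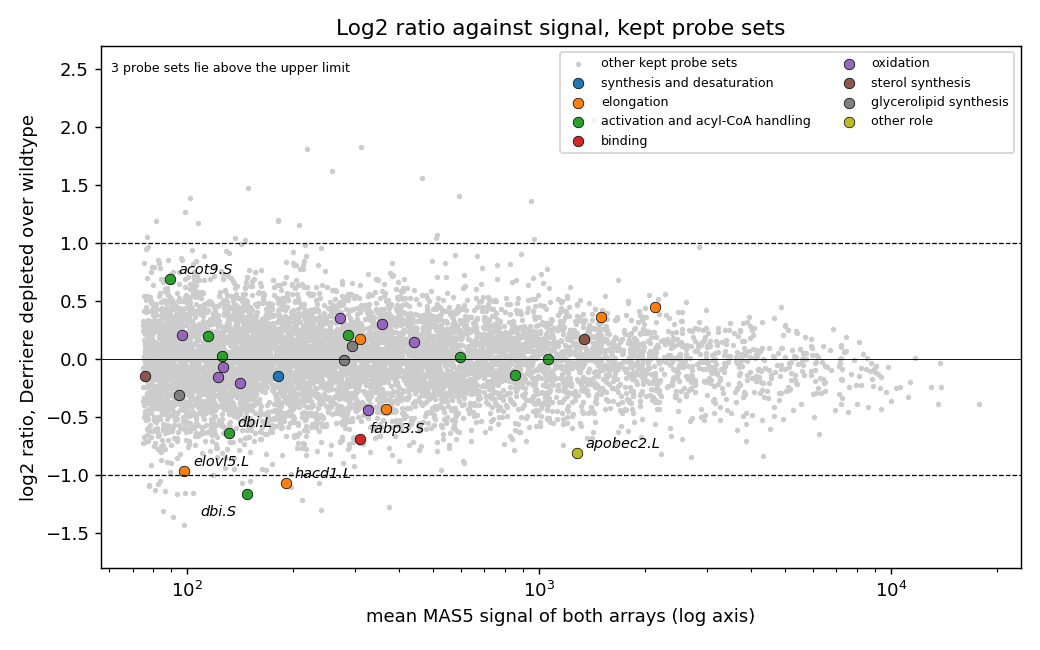
Log2 ratio, Derriere depleted over wildtype, against the mean MAS5 signal of both arrays (log axis) for kept probe sets in grey and the members in the colour of their role; dashed lines mark 2-fold. Genes with a log2 ratio of 0.5 or more in size are named, and dbi.S at -1.16 and hacd1.L at -1.07 lie below the lower dashed line.

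Fatty acid oxidation genes were spread about as widely as genes in general. Of 8 measured genes 4 were above 0 and 4 below. They had a median of 0.04 and a spread (SD) of 0.28, against 0.33 over all genes. None was past 0.5 in size, where 9.51% of all genes were. The medium-chain acyl-CoA dehydrogenase gene acadm, which does the first step of mitochondrial beta-oxidation for medium chains, was higher in both copies. Acadm.L read 396.8 in the array labelled Derriere depleted and 318.8 in the array labelled wildtype, a log2 ratio of 0.31. Acadm.S read 306.5 in the depleted-labelled array and 238.0 in the wildtype-labelled array, a log2 ratio of 0.36. The thiolase gene acaa2.L, of the last step, had a log2 ratio of 0.15, and acad9.S, whose product also helps to assemble respiratory complex I, had 0.21.

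Other oxidation genes were on the lower side. The lowest was cpt1al.L, named for likeness to the carnitine acyltransferase that admits fatty acids to mitochondria, which read 278.3 in the array labelled Derriere depleted and 374.9 in the array labelled wildtype. Its log2 ratio of -0.44 was not shared by a second, dim probe set, which read 58.3 in the array labelled Derriere depleted and 35.7 in the array labelled wildtype, and the mean of both probe sets without the filter was 0.14. The isomerase gene ech1.L had a log2 ratio of -0.20, hadhb.S, the beta subunit of the mitochondrial trifunctional protein, had -0.15, and acad10.L had -0.07. These 3 lay within the pooled SD around 0.

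A further 9 oxidation probe sets were dim. The peroxisomal thiolase gene acaa1.L and cpt2.S, the inner-membrane partner of the carnitine shuttle, lay just under the filter, with log2 ratios of 0.18 and -0.68. The thiolase gene acat1.S read 41.5 in the array labelled Derriere depleted and 38.7 in the array labelled wildtype. Acadl.L, acox2.L, cpt1b.L, the muscle form of the carnitine acyltransferase in mammals, and 1 of 2 probe sets of hadh.L were under the floor on both arrays. The other hadh.L probe set read 11.9 in the depleted-labelled array, under the floor, and 22.8 in the wildtype-labelled array.

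Few genes of fatty acid synthesis and desaturation could be measured. The citrate lyase gene acly.S, whose product supplies cytosolic acetyl-CoA for fatty acids and sterols, had a log2 ratio of -0.15. It read 172.0 in the array labelled Derriere depleted and 189.3 in the array labelled wildtype, and the ratio lay within the pooled SD. The desaturase gene scd, which puts the double bond into saturated chains, was dim in both copies. Its brightest probe set, of scd.S, read 20.5 in the array labelled Derriere depleted and 38.1 in the array labelled wildtype. The second scd.S probe set read 14.4 in the depleted-labelled array and 25.6 in the wildtype-labelled array, and scd.L read 7.8 in the depleted-labelled array and 24.9 in the wildtype-labelled array, so all 3 signals were lower with the Derriere depleted label, 2 of them under the floor. The front-end desaturase gene fads2.S, at 13.8 in the depleted-labelled array and 14.8 in the wildtype-labelled array, was under the floor on both arrays.

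Sterol synthesis was represented by 2 measured genes with small ratios of opposite sign. Dhcr7.S, the reductase of the last step of cholesterol synthesis, read 1427.5 in the array labelled Derriere depleted and 1253.8 in the array labelled wildtype, a log2 ratio of 0.18. Fdps.S, which makes farnesyl diphosphate, had a log2 ratio of -0.14. Neither lay beyond the pooled SD. The 3 probe sets of hmgcs1.L, the synthase that makes HMG-CoA, were dim and read 24.8, 32.3 and 40.3 in the array labelled Derriere depleted, against 19.2, 19.3 and 43.5 in the array labelled wildtype. They did not go one way. The isomerase gene idi1.L read 2.9 in the depleted-labelled array and 0.9 in the wildtype-labelled array, under the floor on both arrays.

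No lipoprotein gene passed the filter. Apoa1.L and apoa1.S, the copies of the main apolipoprotein of high-density lipoprotein, read 11.1 and 11.8 in the array labelled Derriere depleted, against 11.5 and 11.7 in the array labelled wildtype. The 2 probe sets of apob.S, the scaffold of low-density lipoprotein, read 0.6 and 5.3 in the array labelled Derriere depleted, against 1.0 and 0.5 in the array labelled wildtype. These 4 probe sets were under the floor on both arrays, and apoe.L read 13.3 in the depleted-labelled array and 20.1 in the wildtype-labelled array, so no difference could be measured for lipoprotein genes at these signals. The blood and liver markers were mostly dim too, with 5 of 7 probe sets under the floor on both arrays, among them hba1.S and ttr.L. The 1 measured gene of that list, spib.S, was level. It read 285.1 in the depleted-labelled array and 287.0 in the wildtype-labelled array, a log2 ratio of -0.02.

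The 3 measured glycerolipid synthesis genes had a median log2 ratio of -0.01. Agpat3.L, an acyltransferase that builds phosphatidate, had a log2 ratio of 0.11, and the phosphatidate phosphatase genes lpin2.S and lpin3.L had -0.01 and -0.30. Lpin2.S read 278.9 in the array labelled Derriere depleted and 278.3 in the array labelled wildtype. The 3 probe sets of agpat1.L were dim and read 49.0, 58.1 and 26.5 in the array labelled Derriere depleted, against 85.8, 80.9 and 25.9 in the array labelled wildtype. The brighter pair were lower, at log2 ratios of -0.82 and -0.49, and the dimmest was level. Dgat2.L, of the last step of triglyceride synthesis, was dim and level, at 40.5 in the depleted-labelled array and 41.1 in the wildtype-labelled array.

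One gene met the naming rule by its letters alone. Apobec2.L belongs to a family of polynucleotide deaminases, is a gene of striated muscle in mammals and has no role in lipid transport. Its kept probe set read 933.2 in the array labelled Derriere depleted and 1626.2 in the array labelled wildtype, a log2 ratio of -0.81, while a dim probe set read 49.4 in the depleted-labelled array and 53.9 in the wildtype-labelled array. Without it, the other 29 genes had a median of -0.01 and 5 were at -0.5 or less (17.2%).

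**Figure D3:**
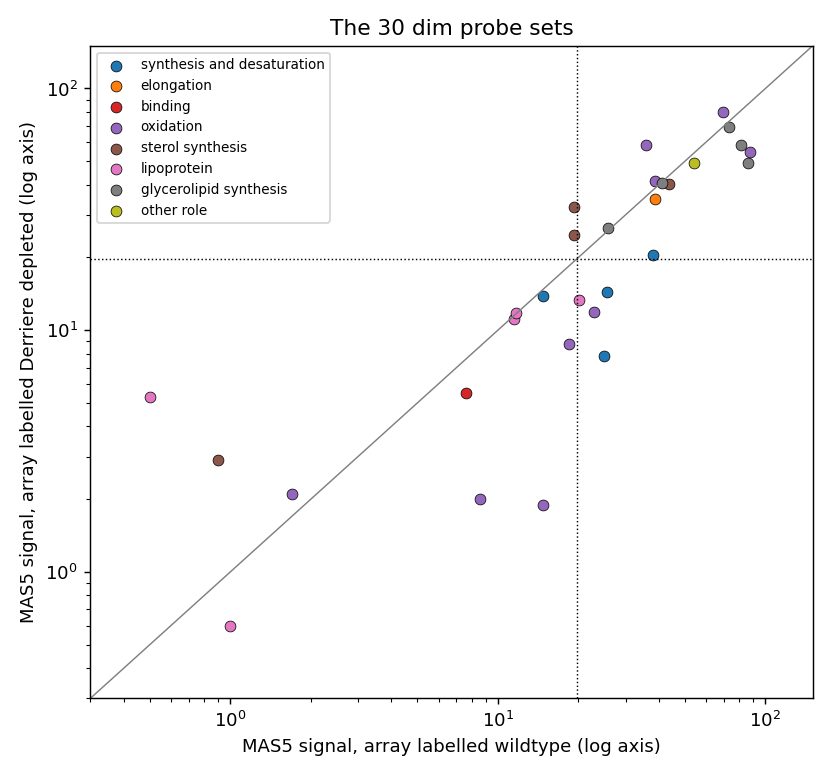
MAS5 signals of the 30 dim member probe sets, with the array labelled Derriere depleted on the vertical axis and the array labelled wildtype on the horizontal axis (both log axes), coloured by role; the dotted lines are the floor of 19.7 and the grey line marks equal signal. A total of 11 lie under the floor on both arrays, 6 on 1 array and 13 on neither.

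Where both copies of a gene were measured, they had the same sign. There were 4 such member genes, acadm, acsl1, dbi and elovl7, with gaps between the log2 ratios of the .L and .S copies of 0.05, 0.19, 0.53 and 0.09. Over all 524 genes with both copies measured, the median gap was 0.21 and 61.6% had the same sign. The gap of dbi was the widest of the 4, and 11.8% of all pairs had a gap at least as wide.

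Other genes of the same pathways, outside the naming rule, were described from a list of 91 names. A total of 23 genes could be measured, 7 of them above 0 (30.4%, against 49.2% of all genes) and 16 below, with a median log2 ratio of -0.13, against -0.01 over all genes. None was past 2-fold, and at the gene level 0.374% of all genes were 2-fold or more higher and 0.242% lower. The lowest was plin2.S, a coat protein of lipid droplets, with a log2 ratio of -0.91. It read 55.3 in the array labelled Derriere depleted and 103.0 in the array labelled wildtype. Since its signal in the depleted-labelled array was under 75, plin2.S passed the filter through the wildtype-labelled array. Its homeolog plin2.L was dim, at 25.7 in the depleted-labelled array and 21.8 in the wildtype-labelled array, and was not lower. Among the 4 genes of glycerolipid and droplet metabolism, which had a median of -0.25, the acyltransferase gene gpat4.L read -0.26 on the log2 scale.

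The partners of elongation and of oxidation differed little. Tecr.L, the reductase that completes the elongation cycle, had a log2 ratio of -0.13, and slc25a1.L, the mitochondrial citrate carrier, had -0.14. Among 8 oxidation partners 4 were above 0 and 4 below, with a median of 0.06. The enoyl-CoA isomerase gene eci2.L had the lowest ratio, -0.47, and pccb.L, a subunit of propionyl-CoA carboxylase, the highest, 0.24. The electron carriers etfa.S and etfb.L, which take electrons from the acyl-CoA dehydrogenases, had 0.12 and 0.20.

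Regulators and other sterol genes were thinly measured. Ggps1.L, which makes geranylgeranyl diphosphate beside the sterol branch, was the 1 measured gene of 12 further names of sterol synthesis and had a log2 ratio of -0.60, at 78.3 in the array labelled Derriere depleted and 117.7 in the array labelled wildtype. Of the genes of sterol regulation and transport, stard3.S had -0.24, npc2.S -0.03 and mbtps1.L -0.01. Of the nuclear receptors, ppard.S had -0.34, rxrb.S -0.19 and ppara.S 0.15. The dim probe sets of ppara.L read 15.0 and 21.6 in the depleted-labelled array, against 34.1 and 33.6 in the wildtype-labelled array. Both were lower with the Derriere depleted label, unlike ppara.S. The lipoprotein receptor gene lrp1.S had -0.20 and its chaperone gene lrpap1.L 0.10. Fasn, fdft1, sqle, lss, cpt1a, acadvl, hadha and apoc1 were not analysed here.

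**Figure D4:**
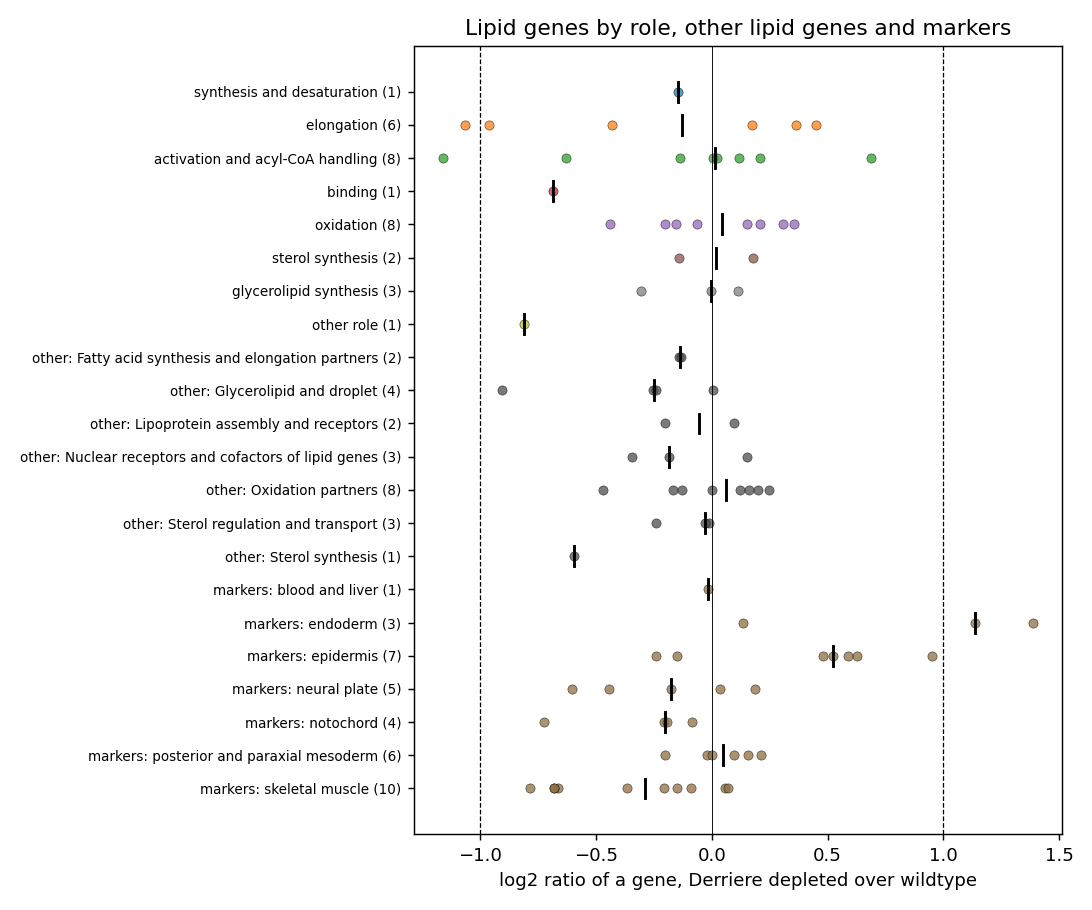
Log2 ratio of each measured gene, Derriere depleted over wildtype, for the members by role, other genes of the same pathways and cell type markers, with the number of genes in brackets and a black bar at each median; dashed lines mark 2-fold. Elongation spans -1.07 to 0.45, while oxidation stays between -0.44 and 0.36.

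Cell type markers are given beside these genes, and their counts stand against 49.2% of all genes above 0 and a median of -0.01. Summed signals of markers are over kept probe sets, so a gene with several kept probe sets enters the sum more than once. The posterior and paraxial mesoderm markers tbxt.S, tbx6.L, msgn1.L, cdx4.L, wnt8a.L and fgf8.L were all present and had a median log2 ratio of 0.05, with summed signals of 6861.5 in the array labelled Derriere depleted and 6491.9 in the array labelled wildtype. Of 10 measured skeletal muscle genes 8 were below 0, with a median of -0.29 and summed signals of 12286.1 in the array labelled Derriere depleted and 15616.4 in the array labelled wildtype. The lowest were tnnt3.S at -0.78, tnnc2.S at -0.68 and tpm1.L at -0.68, while myod1.L and myod1.S read 0.06 and 0.07, and acta1.S was under the floor on both arrays. The ratios of hacd1.L, fabp3.S and apobec2.L, -1.07, -0.69 and -0.81, thus stood beside lower muscle structural genes, whose part in them was not tested.

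Of 7 measured epidermal genes 5 were above 0, with a median of 0.52, although summed signals were 10237.9 in the array labelled Derriere depleted and 10494.9 in the array labelled wildtype. The bright itln1.L, which gave most of that sum, had a log2 ratio of -0.24. The highest epidermal gene, cdh1.S at 0.95, passed the filter through the depleted-labelled array. It read 101.2 there, against 52.0 in the wildtype-labelled array. All 3 measured endoderm genes were above 0, with a median of 1.14, but foxa1.S, at 0.13, lay within the pooled SD. The dim endoderm probe sets did not go one way. Sox17a.S read 42.9 in the depleted-labelled array and 34.9 in the wildtype-labelled array. Gata6.L was level, at 48.3 in the depleted-labelled array and 48.6 in the wildtype-labelled array. Gata6.S was lower, at 8.7 in the depleted-labelled array, under the floor, and 23.7 in the wildtype-labelled array. Sox17a.L at 1.39 and sox17b.1.S at 1.14 were both 2-fold or more higher. Sox17a.L passed the filter through the depleted-labelled array, at 147.8 there against 56.2 in the wildtype-labelled array. So did a probe set of sox17b.1.S, at 100.8 in the depleted-labelled array and 57.7 in the wildtype-labelled array. Taken alone, that probe set was less than 2-fold higher. The summed signals of the kept endoderm probe sets were 804.5 in the depleted-labelled array and 496.6 in the wildtype-labelled array. Of 5 neural plate genes 3 were below 0, with summed signals of 1603.4 in the depleted-labelled array and 1812.8 in the wildtype-labelled array. All 4 notochord genes were below 0, with summed signals of 463.0 in the depleted-labelled array and 600.3 in the wildtype-labelled array. The ratio of 3' to 5' signal, a measure of RNA and labelling quality, was 3.54 in the depleted-labelled array and 4.74 in the wildtype-labelled array for beta-actin. It was 24.3 in the depleted-labelled array and 32.3 in the wildtype-labelled array for Gapd, and 126 in the depleted-labelled array and 206 in the wildtype-labelled array for a3Act. For a1Act it went the other way, at 71.6 in the depleted-labelled array and 65.3 in the wildtype-labelled array. The part of these differences in the members' ratios was not tested. On both arrays the 3' signal exceeded the 5' signal for beta-actin, Gapd, a3Act and a1Act, by 3.54-fold or more. Whether this left member probe sets dim was not tested.

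**Figure D5:**
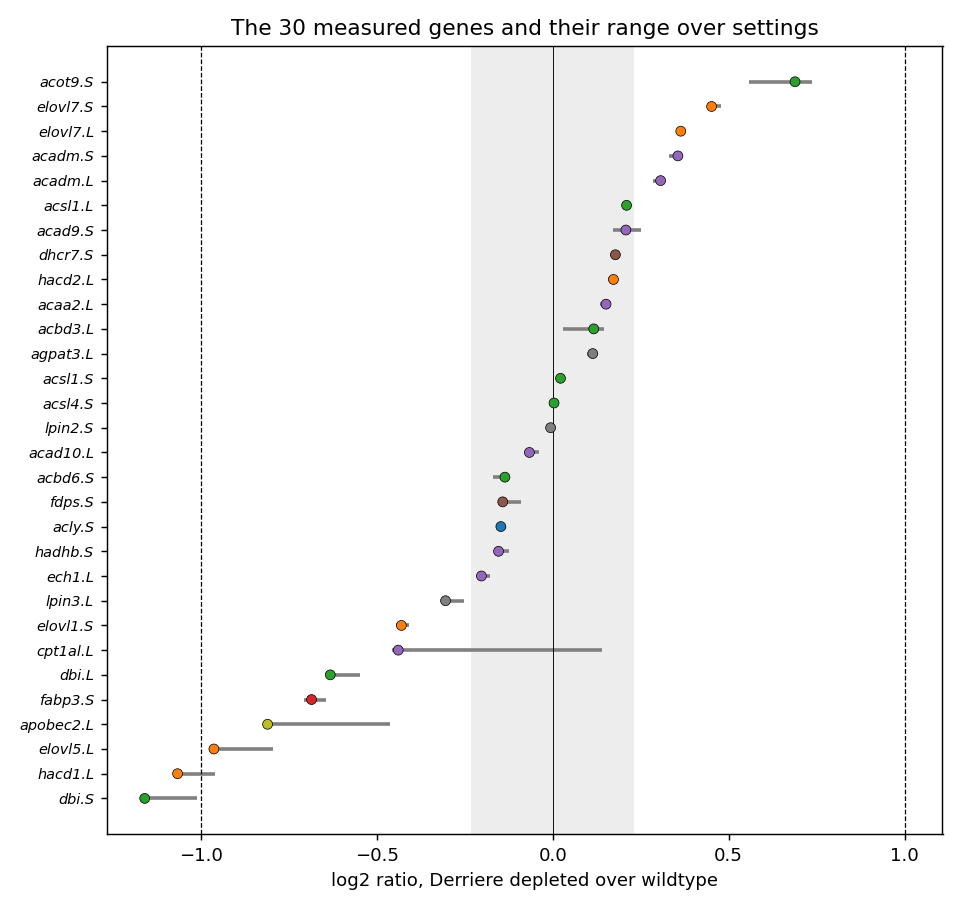
Log2 ratio, Derriere depleted over wildtype, of the 30 measured genes in order, coloured by role, with a bar for the range over alternative settings. The grey band is the pooled SD of 0.228 around 0 and dashed lines mark 2-fold. Bars that stay below the band include those of dbi.S, elovl5.L and fabp3.S. The bars of cpt1al.L, acsl4.S and lpin2.S cross 0.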

How the data were processed

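The authors deposited 1 MAS5 intensity for each probe set, as the submitters' processing notes name it. The sources used here give no MAS5 version, scaling target or detection call. Biotin-labelled cRNA was made from 6 µg of total RNA, per the labels' protocols. The 120 control probe sets were left out. Symbols came from the platform annotation, and 9304 probe sets had exactly 1. The current gene table of assembly Xenopus_laevis_v10.1 changed 0 of the members' symbols.

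Signals under 19.7, the 25th percentile, were raised to it before log2 ratios were taken. The 7747 probe sets with a mean signal of at least 75 were kept. Ratios were centred on the median of the kept probe sets, a shift of 0.0089. Kept probe sets of 1 gene were averaged. With 1 array per group, the rule was one of size, 2-fold. Genes named were those past 2-fold, up to 3 highest and 3 lowest of each role, and a list of well-known enzymes. The largest ratios of each further list were named too. The genes acaa2.L, acad10.L, acsl1.S, acsl4.S, acsbg2.L, plin2.L, etfa.S, etfb.L, ppara.S, ppara.L, mbtps1.L and npc2.L were chosen after their values were seen. So were foxa1.S, the dim endoderm probe sets and the dim members outside those rules. Most markers are given as counts. Members and lists were chosen with earlier results of these data known. Alternatives changed the floor, centring, normalization, filter, threshold and choice of probe set. The procedure was run on simulated data whose added changes were all well past 2-fold, so changes close to that size were not covered. Python 3.11.15, numpy 2.4.6, pandas 2.3.3, statsmodels 0.14.6 and matplotlib 3.10.9 were used.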

Additional observations from a re-analysis of the deposited data

How the results depend on the processing

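No paired analysis was possible because there was 1 array a group, which also leaves no replicate to omit. Of 30 measured genes, 27 kept their sign in every alternative that measured them; the exceptions were acsl4.S and lpin2.S, which lay at 0.00 and -0.01, and cpt1al.L, at 0.14 without the filter. The count of probe sets 2-fold or more lower was 2. It was 1 with the added offset, 0 under a filter at the 75th percentile, which removes both, 0 at 3-fold and 6 at 1.5-fold, where 3.38% of all kept probe sets were lower. The count of higher ones was 0, and 1 at 1.5-fold, where 2.52% of all kept probe sets were higher. The median of the elongation genes was 0.26 under the stricter filter, which drops hacd1.L and elovl5.L. Without a filter, which brings in dim probe sets, the binding role read -0.34 and apobec2.L -0.46. The median of all members ranged from -0.04 to 0.11. No probe set named both copies of a member gene, so counting such probe sets changed no count. MAS5's own background and scaling steps were not varied. Dim signals left 21 of 51 genes without a kept probe set, among them all 4 lipoprotein genes.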

Other observations

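Among genes of sterol transport, the dim probe set of npc2.L, a lysosomal cholesterol carrier, read 46.6 in the array labelled Derriere depleted and 96.2 in the array labelled wildtype, a log2 ratio of -1.05. Its homeolog npc2.S, which passed the filter, read 312.4 in the depleted-labelled array and 316.7 in the wildtype-labelled array. Whether the copies differ was not tested, since the npc2.L probe set was too dim for the filter.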
